A study of Mus musculus with 9 samples.

Results

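Endothelial cells line the blood vessels of the retina, and 10 genes known from them were followed here through RNA sequencing of cells prepared as Müller glia. The genes were taken by symbol: Cldn5, Pecam1, Cdh5, Flt1, Kdr, Tek, Tie1, Esam, Egfl7 and Slco1a4. All 10 were among the 16367 genes of the table of sorted cells, and 9 were among the 17035 genes of the table of cultured cells, where Cldn5 was not listed. The 9 libraries formed 3 groups of 3, and the labels give a wild-type genotype for every one. Sham animals had a corneal incision and no oil, and animals with ocular hypertension (OHT) had 1.2 µL of silicone oil placed in the anterior chamber of both eyes. Each sorted library came from 4 pooled neural retinas that were dissociated with papain, depleted of dead cells and captured on a magnetic column through GLAST, the glutamate transporter encoded by Slc1a3. The untreated primary cultures were grown in serum from retinas of C57BL/6J pups 8 to 10 days old. Neither the strain nor the age of the sorted animals, nor the time after injection, is given in the sources used here.

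Retinal vessels form an inner blood-retinal barrier. Their endothelial cells are joined by adherens junctions built on VE-cadherin and by tight junctions built on claudin-5, and they take up or expel solutes through dedicated carriers. VEGF acts on them through the receptors VEGFR1 and VEGFR2, and angiopoietins act through the receptor TIE2 and its relative TIE1. Müller glia and astrocytes are not endothelial, but their end feet contact these vessels and they make VEGF. VEGFR2 has also been described in Müller glia.

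Sorted libraries held 37.8 to 53.6 M reads (M, 1000000 reads) and cultures 66.3 to 76.7 M reads. Levels are given as normalised read counts, the deposited values, within the sorted table, and as ppm (reads per 1000000 reads of a library) where cultures are included. In the sorted libraries 8 Müller glia genes summed to 1661 to 7885 ppm, while 12 microglia and macrophage genes summed to 34210 to 61480 ppm, so markers of other cells were present in the sorted fraction. In the cultures the Müller glia genes were at 216 to 372 ppm, and the defining markers Rlbp1 (1.60 to 2.84 ppm) and Aqp4 (1.93 to 3.13 ppm) were near 0 against their sorted levels. Acta2, a smooth muscle actin, reached 8130 to 13200 ppm there, and the collagen gene Col1a1 4120 to 6520 ppm.

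Promoter windows of 4 of the genes are shown because Kdr and Flt1 varied over the libraries in another way than Cldn5 and Egfl7. Each is the 250 bases before a transcription start in RefSeq on GRCm38.p6, read from 5′ to 3′ on the gene's strand, and 7 of the 10 genes had such an entry (not Pecam1, Cdh5 or Esam). Capitals mark the hexamers AGGAAG and CGGAAG on either strand, which are core forms of the site bound by ETS factors, a family that includes the endothelial regulators Erg and Fli1.
Kdr, chr5:75978456-75978705, minus strand: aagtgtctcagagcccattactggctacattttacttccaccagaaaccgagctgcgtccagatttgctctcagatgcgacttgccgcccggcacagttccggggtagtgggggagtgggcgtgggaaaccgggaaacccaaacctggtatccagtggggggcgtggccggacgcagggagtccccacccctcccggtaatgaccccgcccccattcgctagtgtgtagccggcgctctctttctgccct
Flt1, chr5:147726012-147726261, minus strand: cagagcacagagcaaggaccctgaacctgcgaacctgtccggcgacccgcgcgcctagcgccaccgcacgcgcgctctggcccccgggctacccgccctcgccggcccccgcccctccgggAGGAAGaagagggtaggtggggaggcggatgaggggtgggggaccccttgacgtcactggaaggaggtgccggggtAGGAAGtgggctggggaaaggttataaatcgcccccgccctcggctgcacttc
Cldn5, chr16:18776597-18776846, plus strand: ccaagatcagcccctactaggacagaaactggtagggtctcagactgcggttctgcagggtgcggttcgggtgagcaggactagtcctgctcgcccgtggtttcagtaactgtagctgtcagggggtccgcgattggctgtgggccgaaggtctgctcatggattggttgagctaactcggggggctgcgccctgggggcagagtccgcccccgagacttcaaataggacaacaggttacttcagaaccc
Egfl7, chr2:26580833-26581082, plus strand: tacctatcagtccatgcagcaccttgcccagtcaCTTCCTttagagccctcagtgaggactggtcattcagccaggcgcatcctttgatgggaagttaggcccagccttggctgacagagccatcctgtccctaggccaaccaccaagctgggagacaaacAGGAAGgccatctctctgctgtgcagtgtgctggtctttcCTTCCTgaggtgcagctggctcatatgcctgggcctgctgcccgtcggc
The Flt1 window held 2 of these hexamers and the window before the first listed start of Egfl7 held 3 (its other windows, not shown, held 1 and 0), while those of Kdr and Cldn5 held 0. The 7 genes had 9 windows in all, and 5 of these, from 4 genes, held 1 or more hexamers, as did 39.2% of all 32851 windows of this length. A match is a stretch of letters and does not show a site in use.

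The members as a group were lower by estimate in OHT, and none passed the test. OHT was set against sham to find genes that respond to the oil, which raises eye pressure, and limma on log2(value + 1) called 0 of the 10 genes at an adjusted p under 0.05, with 0% of all 14403 genes called. Before adjustment 1680 genes had a p under 0.05, edgeR called 0 genes, and DESeq2 called 275, none of them a member. All 10 estimates lay below 0, against 54.8% of all genes, and 3 of the 10 had an unadjusted p under 0.05 on the lower side, against 6.30%. The estimate of Tie1 was -0.15 and changed sign in 5 of 16 alternatives. The 10 estimates are not separate pieces of evidence, since the genes share libraries and 9 of 10 were highest in sham replicate 2 in ppm. The median log2 difference was -1.27 over the 10 genes and -0.12 over all genes tested, a gap of -1.14, which was -0.71 without sham replicate 2 and -1.77 without sham replicate 3. Fold changes on this scale understate changes of low genes. In RNA from pooled cells, fewer endothelial cells and less of these RNAs per cell cannot be told apart. Each p-value measures the spread between these pooled libraries, and the labels do not tell whether the pools of a group were prepared separately.

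**Figure D1:**
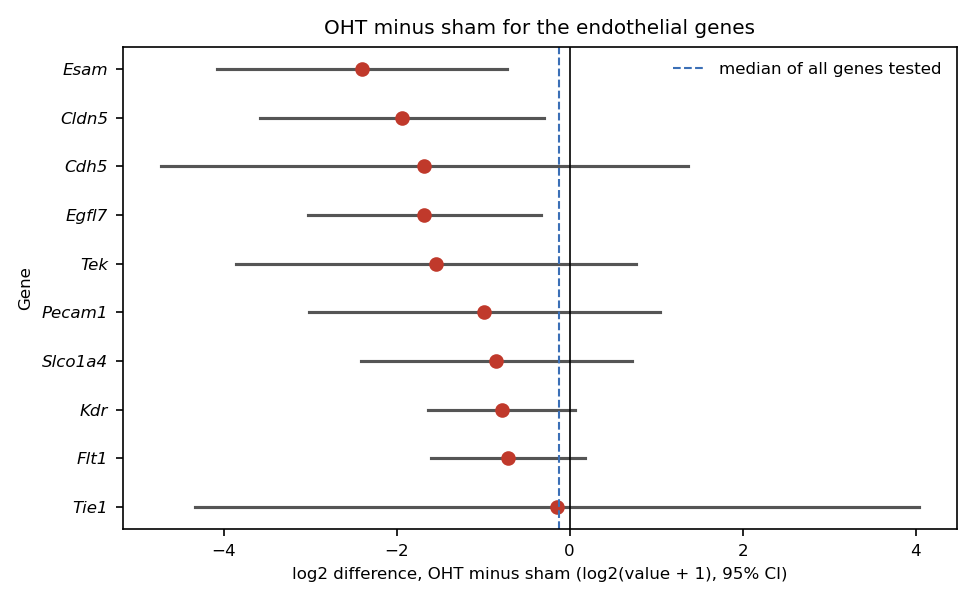
Estimated log2 difference (OHT minus sham, log2(value + 1) scale, x axis) for each of the 10 genes (y axis), with the point as the limma estimate and the line as its 95% confidence interval over 3 sham and 3 OHT libraries. The dashed line is the median of all genes tested at -0.12, and the intervals of Esam, Cldn5 and Egfl7 lie below 0 before adjustment.

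Esam, an immunoglobulin-family adhesion molecule of endothelial junctions that platelets also carry, had the largest estimate of the 10. Its normalised read counts were 639, 847 and 324 in sham and 52.5, 224 and 99.4 in OHT. Every OHT library was below every sham library. The means were 604 ± 263 and 125 ± 88.6 (SD, n = 3 each), which gave a log2 difference of -2.40 (SE 0.76, 95% confidence interval -4.07 to -0.72, limma adjusted p = 0.332). Over the alternatives its estimate stayed between -2.94 and -1.90, and its smallest adjusted p was 0.0514, in DESeq2.

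Egfl7 encodes a matrix-bound factor secreted by endothelial cells, and it gave the other set of groups without overlap. Sham libraries had 610, 658 and 482 normalised counts and OHT libraries 133, 295 and 149. It also had the steadiest sham values of the 10 genes relative to its mean, at 583 ± 90.6, against 192 ± 89.2 in OHT (SD, n = 3). It differed by -1.68 on the log2 scale (SE 0.62, interval -3.03 to -0.33, limma adjusted p = 0.364). These 2 genes are the members whose groups did not overlap on the deposited scale, where 9.18% of all genes had every OHT library below every sham library.

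Cldn5, the main claudin of the barrier's tight junctions, was at 1449, 1882 and 502 normalised counts in sham and at 602, 405 and 98.6 in OHT. OHT replicate 1 lay above sham replicate 3 on this scale. In ppm the groups did not overlap, with 37.1, 47.8 and 11.8 in sham and 9.16, 9.18 and 2.61 in OHT. The deposited values of OHT replicate 1 sum to 65.8 M and those of the other sorted libraries to 37.8 to 44.1 M, and the 2 scales differ by these sums. In ppm 3 of the 10 genes had no overlap, against 11.4% of all genes. The log2 difference of Cldn5 on the deposited scale was -1.94 (SE 0.75, interval -3.58 to -0.30, limma adjusted p = 0.377), and it was -1.17 without OHT replicate 3.

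Cdh5, which encodes VE-cadherin, had 103, 220 and 7.65 normalised counts in sham and 15.2, 18.9 and 17.6 in OHT. The value of sham replicate 3 rests on 8 reads and those of OHT on 11 to 23 reads, too few to order these 4 libraries, and sham replicates 1 and 2 were far above them. The log2 difference of -1.68 (SE 1.39, limma adjusted p = 0.615) was -0.72 without sham replicate 2, -3.06 without sham replicate 3, -0.60 after quantile normalization, -2.72 in edgeR and -2.67 in DESeq2. Pecam1, the adhesion molecule CD31 that is also found on platelets and leukocytes, was at 518, 739 and 79.4 in sham and 187, 258 and 80.1 in OHT. Sham replicate 3 and OHT replicate 3 were about equal and the lowest of the 6. Its log2 difference of -0.99 (SE 0.93, limma adjusted p = 0.661) was -0.37 without sham replicate 2, -0.51 without OHT replicate 3, -0.63 without sham replicate 1 and -1.97 without sham replicate 3, and it was -0.50 after quantile normalization and -0.62 with array weights.

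Slco1a4 encodes an organic anion carrier of brain and retinal vessels. It had 1091, 683 and 539 normalised counts in sham and 1162, 381 and 154 in OHT. The highest value belonged to OHT replicate 1, and the groups overlapped. The estimate of -0.85 (log2, SE 0.71, limma adjusted p = 0.621) became -0.15 without OHT replicate 3 and -1.60 without OHT replicate 1, and it was -0.54 in edgeR and -0.45 in DESeq2.

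The VEGF receptors were the most abundant members by reads. Kdr, which encodes VEGFR2, the main signalling receptor for VEGF-A, had 4379, 9519 and 6195 normalised counts in sham and 3992, 2600 and 4845 in OHT. OHT replicate 3 lay above sham replicate 1, so the groups overlapped by 1 pair of libraries. The log2 difference was -0.79 (SE 0.39, interval -1.64 to 0.07, limma adjusted p = 0.455), and it was -0.50 without sham replicate 2.

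Flt1 encodes VEGFR1, which binds VEGF-A tightly and signals weakly. Its normalised counts were 2976, 5231 and 2335 in sham and 2262, 1490 and 2472 in OHT. OHT replicate 3 again lay within the sham range, and sham replicate 2 was the highest of the 6 for both receptors. The log2 difference of -0.71 (SE 0.41, interval -1.60 to 0.18, limma adjusted p = 0.502) was -0.38 without sham replicate 2.

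The angiopoietin receptors were scarcer. Tek, the gene of TIE2, had 341, 439 and 72.7 normalised counts in sham and 20.7, 130 and 156 in OHT, with sham replicate 3 inside the OHT range. Its log2 difference of -1.54 (SE 1.05, limma adjusted p = 0.557) was -0.64 without OHT replicate 1, -2.34 without sham replicate 3 and -0.75 both after quantile normalization and with array weights. Tie1, an orphan receptor that modulates TIE2, was the least abundant member in sham per length. No read of it was found in sham replicate 1 (a count of 0 allows a level of 0.0793 ppm), and it had 110 and 35.4 normalised counts in the other sham libraries, against 2.76, 56.0 and 12.8 in OHT. No direction can be given for Tie1, since its log2 difference of -0.15 (SE 1.91, limma adjusted p = 0.980) was positive in 5 of 16 alternatives and reached 1.25 without sham replicate 2.

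**Figure D2:**
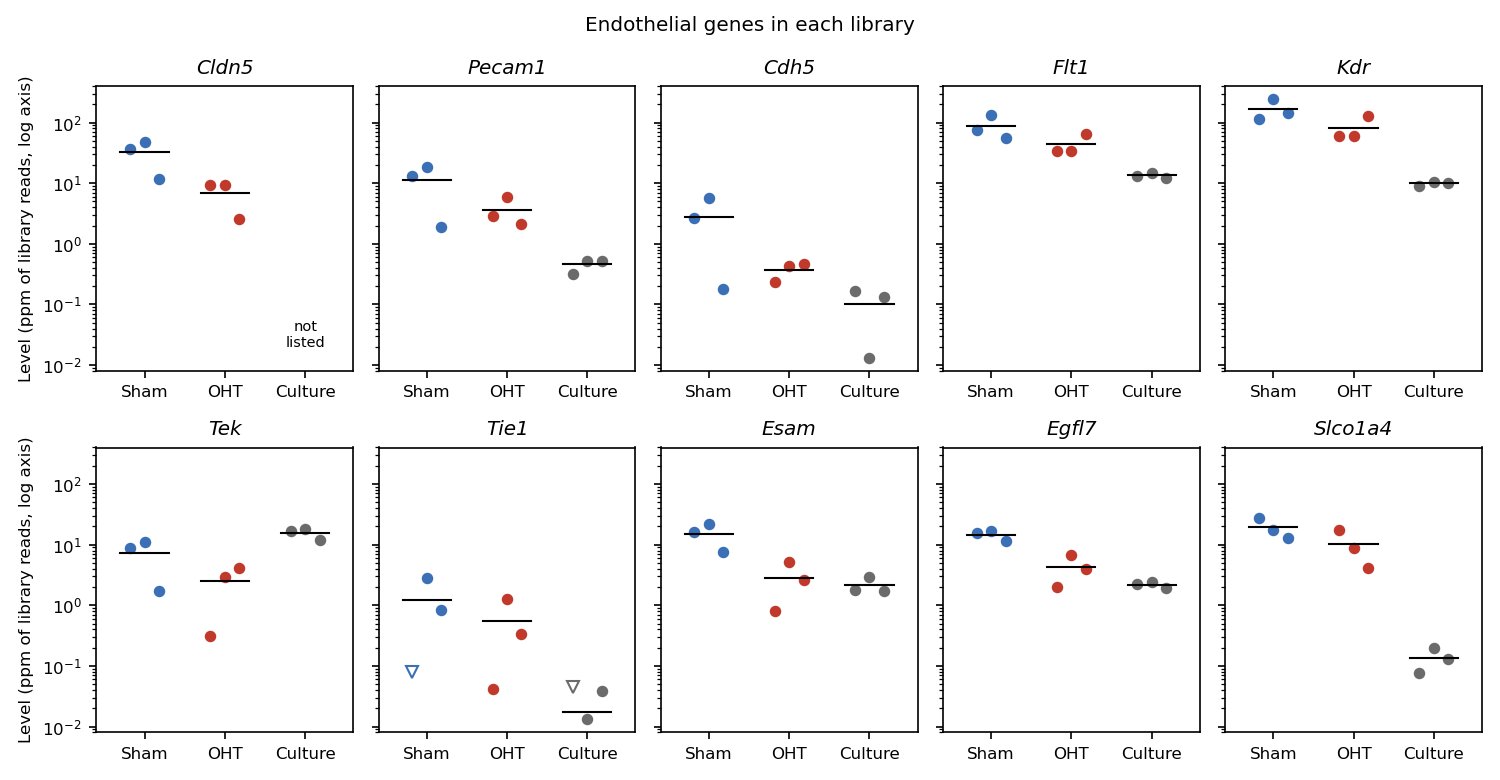
Level of each of the 10 genes in every library (y axis, ppm of library reads, log axis) by group (x axis), with 1 point per library, replicates 1 to 3 from left to right, and a bar at the group mean. Open triangles mark libraries with 0 reads, drawn at the level of 3 reads, and Cldn5 is not listed in the culture table. Tek alone of the 9 genes listed there has a higher mean in the cultures (15.7 ppm) than in sham (7.20 ppm).

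Divided by exon length, the order of levels in sham began with Cldn5 at 22.8 ± 13.1 ppm per kb, Kdr at 18.4 ± 7.47 and Flt1 at 6.52 ± 2.99 (SD, n = 3). Esam (5.29), Egfl7 (4.06), Slco1a4 (3.01), Pecam1 (1.81), Tek (1.53), Cdh5 (0.667) and Tie1 (0.246 ppm per kb) followed. Kdr and Flt1 were the only neighbours in this order whose sham libraries did not overlap. In OHT the order began with Kdr at 9.15 ± 4.38 ppm per kb, above Cldn5 at 4.93 ± 2.67 without overlap. Lengths are the merged exons of GENCODE M21, which need not be the transcripts made in these cells.

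Kdr and Flt1 also carried most of the summed level. The 10 genes together took 310, 517 and 248 ppm of the sham libraries and 128, 133 and 214 ppm of the OHT libraries, a log2 ratio of means of -1.18 with no overlap. Kdr and Flt1 made up 60.8% to 80.7% of that sum in sham and 69.8% to 90.5% in OHT. Without them the other 8 genes summed to 122, 142 and 48.0 ppm in sham and 33.0, 40.1 and 20.3 ppm in OHT, and the log2 ratio of means was -1.74. Summed as normalised counts, these 8 genes did overlap, with OHT replicate 1 (2175) above sham replicate 3 (2043). The 2 sums ordered the libraries differently: OHT replicate 3 was the highest OHT library for Kdr and Flt1 and the lowest for the sum of the other 8. Of these 8, Cldn5, Pecam1 and Slco1a4 were lowest there in ppm, and Esam, Egfl7 and Tie1 lay between the other OHT libraries. Tek was highest there (0.315, 2.95 and 4.14 ppm in OHT), as was Cdh5 on few reads (0.231, 0.429 and 0.467 ppm).

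The library pattern of the VEGF receptors resembled that of the Müller glia genes. All 8 Müller glia genes were highest in sham replicate 2 and, within OHT, in replicate 3, and so were Kdr and Flt1. This order is not particular to these genes: 9 of 10 members and 9 of 10 rod genes were highest in sham replicate 2, and within OHT 4 of 10 members and 9 of 10 rod genes were highest in replicate 3. Per 1000 ppm of summed Müller glia genes, Flt1 stood at 23.1, 16.9 and 18.2 in sham and 20.4, 20.3 and 17.6 in OHT. That is a range of 1.37-fold, whereas Flt1 in ppm ranged 3.94-fold. Kdr stood at 34.0, 30.7 and 48.2 in sham and 36.0, 35.5 and 34.4 in OHT, a range of 1.57-fold against 4.11-fold in ppm. Among 12758 genes above 0 in all 6 libraries and outside the Müller list, the median range of this ratio was 7.03-fold. No gene but Flt1 itself had a range as narrow as that of Flt1, and 12 genes, Kdr included, had one as narrow as that of Kdr. The genes were not matched for level, and counting error alone widens the range of a gene with few reads. Flt1 and Kdr had at least 1637 and 2889 reads in each sorted library. The log2 ratio of OHT to sham means was 0.00 for Flt1 and -0.09 for Kdr on this scale. This ratio was chosen after the values had been seen, so the ranks on it are no chance levels and are a description with no test. It does not say which cells held these RNAs.

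The other members did not keep to the Müller glia genes in this way. Per 1000 ppm of the Müller glia sum, Cldn5 ran from 0.700 in OHT replicate 3 to 11.2 in sham replicate 1, a range of 16.1-fold. Tek (14.2-fold), Cdh5 (13.5-fold), Esam (10.5-fold), Slco1a4 (9.58-fold) and Pecam1 (7.06-fold) also ranged as widely as the median gene or more widely, and Egfl7 ranged 4.47-fold. The lowest libraries of Cdh5, Tek and Esam held 8, 15 and 38 reads, where counting error alone widens a range. Those of Cldn5 and Slco1a4 held 123 and 192 reads. None of the 10 genes separated the groups on this scale: Egfl7, for instance, was at 4.73, 2.12 and 3.75 in sham and 1.20, 4.02 and 1.06 in OHT. Per summed microglia genes, 5 of the 10 (Cldn5, Flt1, Esam, Egfl7 and Slco1a4) were lower in every OHT library than in every sham library. Per summed mural genes 1 gene, Kdr, was higher in every OHT library, and per summed rod genes 0 genes separated the groups. The share of all genes without overlap was not counted on these scales, so these counts are not results about the members. The microglia sum itself ran from 34210 to 52540 ppm in sham and from 46000 to 61480 ppm in OHT, and a higher sum lowers the ratio of any gene.

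**Figure D3:**
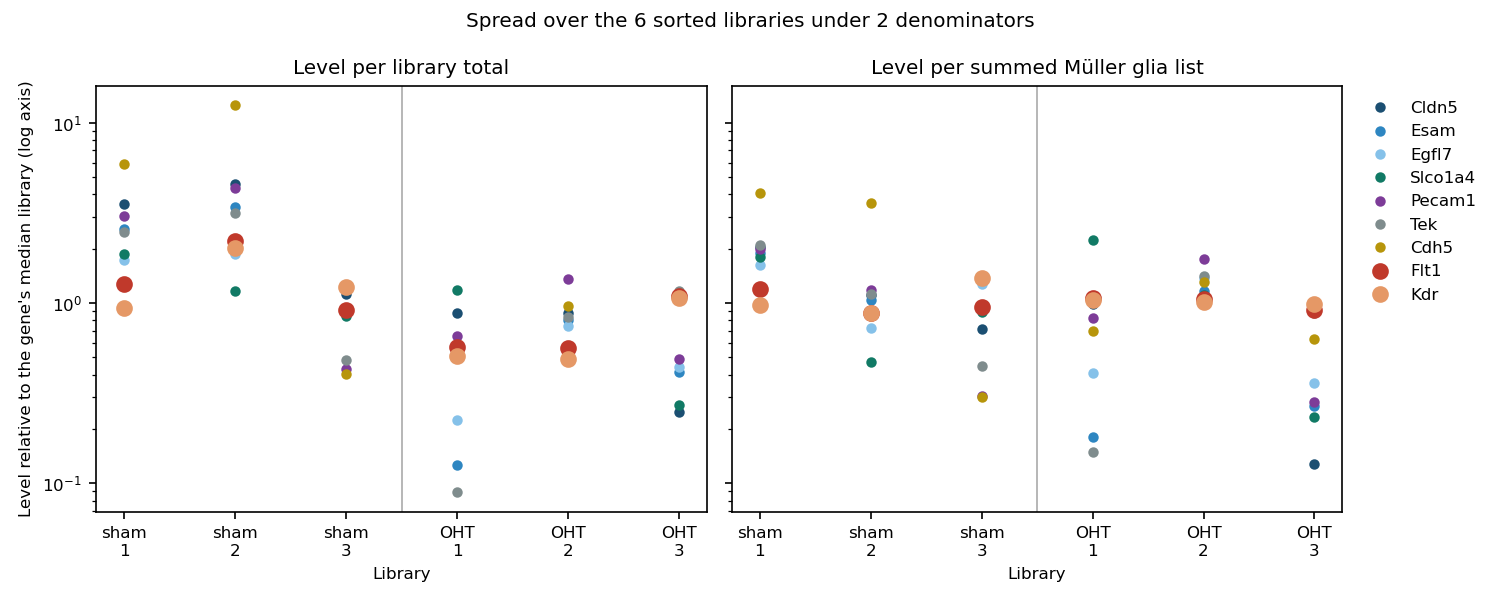
Level of 9 of the genes in each of the 6 sorted libraries (x axis) divided by the gene's median over those libraries (y axis, log axis), with levels per library total on the left and per summed Müller glia list on the right. Large points are Flt1 and Kdr, which spread 3.94-fold and 4.11-fold on the left and 1.37-fold and 1.57-fold on the right. Tie1 is left out because it has 0 reads in sham replicate 1.

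Levels of other cell types also differed between the groups by estimate, and their part in the member differences was not tested. Of the mural, Müller glia, rod, astrocyte and microglia sums, only the mural one had no overlap between the groups. That separation rested largely on 2 of the 14 mural genes, Rgs5 (102, 187 and 226 ppm in sham) and Vtn (91.5, 365 and 338 ppm in sham). In OHT Rgs5 was at 29.4, 4.85 and 19.8 ppm and Vtn at 14.1, 21.9 and 46.6 ppm. Mural genes (pericytes and smooth muscle, 14 genes) summed to 229 to 651 ppm in sham and 82.1 to 113 ppm in OHT, with 11 of 13 tested genes lower by estimate. Des and Tagln had 0 reads in every OHT library, but Tagln was at most 0.0703 ppm in sham too. The highest of the 6 sorted libraries was OHT replicate 1 for 3 mural genes (Kcnj8, Higd1b and Ndufa4l2), OHT replicate 2 for 1 and a sham library for the others. Rgs5, a pericyte regulator of G-protein signalling, had a log2 difference of -3.27 (SE 0.68), and Vtn, which encodes vitronectin, -2.95 (SE 0.54), both with a limma adjusted p of 0.332. Müller glia genes summed to 3022 to 7885 ppm in sham and 1661 to 3727 ppm in OHT, and 8 of 8 were lower by estimate (median -0.81). Rod genes ran from 2562 to 24520 ppm in sham and from 870.5 to 3190 ppm in OHT, with 10 of 10 lower. Astrocyte genes ran from 433 to 2632 ppm and from 273 to 618 ppm, with 6 of 6 lower. Microglia and macrophage genes, in contrast, were higher by estimate in 9 of 12, with a median of 0.58, led by Aif1 (1.46, SE 0.43) and Cd68 (1.25, SE 0.37), both at a limma adjusted p of 0.332. Tmem119 (-0.46), Csf1r (-0.20) and C1qc (-0.18) were lower by estimate, and Cx3cr1 (0.05) and P2ry12 (0.02) were near 0. Anpep, an aminopeptidase that mural cells share with other cells, was higher by estimate (4.02, SE 1.52, limma adjusted p = 0.370), with 19.6, 9.22 and 1444 normalised counts in sham and 1460, 2195 and 408 in OHT. No gene of these lists passed the test.

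**Figure D4:**
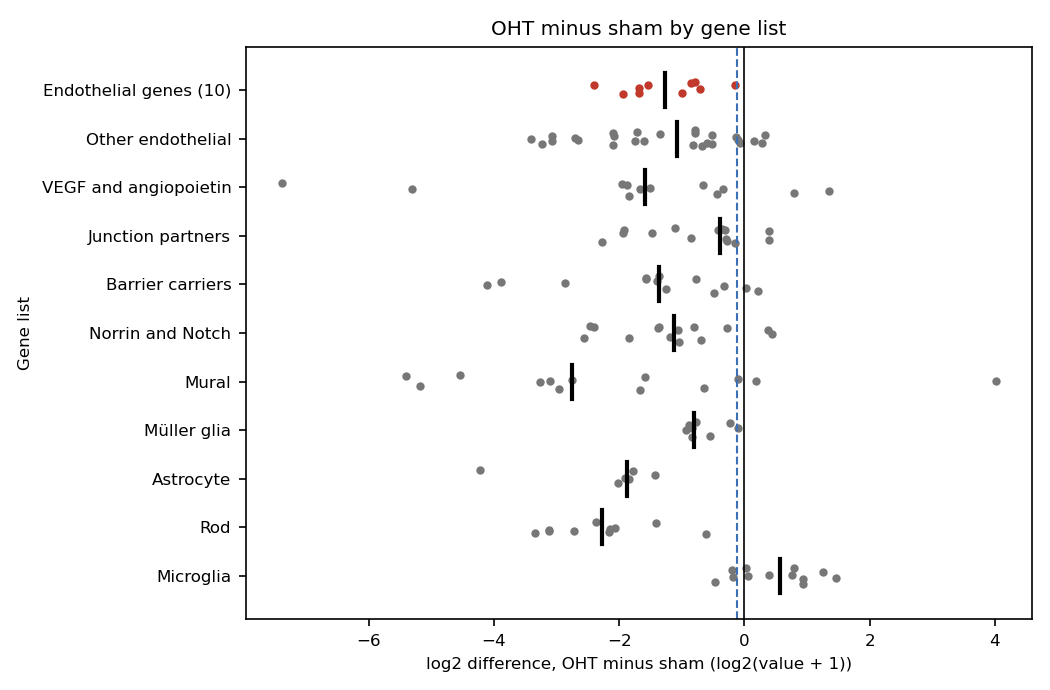
Estimated log2 difference (OHT minus sham, x axis) of each tested gene in 11 lists (y axis), with a black bar at the list median and a dashed line at the median of all genes (-0.12). The medians are -1.27 for the 10 endothelial genes, -1.08 for the other endothelial genes, -2.75 for mural genes and 0.58 for microglia genes, and no gene shown passed the adjusted threshold.

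Among 26 other genes known from vascular endothelium, 0 passed the test in either direction, 23 were lower by estimate and the median log2 difference was -1.08 (-0.57 without sham replicate 1, -1.71 without sham replicate 3 and -1.99 without OHT replicate 2). The smallest p on the lower side belonged to Adgrl4, an adhesion G-protein-coupled receptor of vessels, and Ramp2, a partner of the adrenomedullin receptor. Adgrl4 had 713, 411 and 239 normalised counts in sham and 23.5, 120 and 39.3 in OHT (estimate -3.07 in log2, SE 0.89). Ramp2 had 185, 230 and 66.0 against 12.4, 23.1 and 6.41 (-3.41, SE 1.12). Neither gene overlapped between the groups, with limma adjusted p-values of 0.332 and 0.343. On the higher side were Fli1, at 3802 ± 828 and 4881 ± 1763, and Ecscr, at 2468 ± 1202 and 2756 ± 124 (SD, n = 3). Fli1 is an ETS factor that blood cells also express. Their log2 differences were 0.33 and 0.28, with limma adjusted p-values of 0.712 and 0.778.

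Ligands and co-receptors of the VEGF and angiopoietin systems gave 0 called genes of 12 tested, 10 of them lower by estimate. Their median was -1.59, with -0.86 after quantile normalization, -1.05 with a pseudocount of 10, -0.97 without sham replicate 3 and -1.02 without OHT replicate 3. Angpt4, an angiopoietin that binds TIE2, had 50.6, 4167 and 2960 normalised counts in sham and 2.76, 34.6 and 0 in OHT (estimate -7.39 in log2, SE 1.76, limma adjusted p = 0.332). Sham replicate 1 was far below the other sham libraries yet above all OHT libraries. Angpt2, a context-dependent TIE2 antagonist, had 146, 292 and 329 against 13.8, 0 and 14.4 (-5.31, SE 1.33, limma adjusted p = 0.332). Both estimates depend on the pseudocount, since each includes a library with 0 reads. Nrp1, a VEGF co-receptor that many cells carry, was at 14580, 6683 and 13950 in OHT against 3777, 3258 and 6553 in sham (1.36, SE 0.41, limma adjusted p = 0.332). These groups did not overlap on the deposited scale, but in ppm OHT replicate 2 (151 ppm) lay below sham replicate 3 (154 ppm). Vegfb had 275 ± 126 in sham and 503 ± 296 in OHT (0.79, SE 0.68, limma adjusted p = 0.627).

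The junction, barrier and vessel-signalling lists were alike in holding no called gene. Of 14 partners of endothelial junction proteins 12 were lower by estimate, with a median of -0.38 (-0.62 after quantile normalization, -0.60 without sham replicate 3, -0.75 without OHT replicate 1). Cldn12, a claudin, was at 795 ± 300 in sham and 205 ± 189 in OHT, without overlap (limma adjusted p = 0.333). Ctnnb1, whose product beta-catenin binds cadherins, and F11r had log2 differences of 0.40 each (limma adjusted p = 0.605 and 0.613). Of 13 barrier carriers and transcytosis genes 11 were lower by estimate (median -1.36, and -0.89 without OHT replicate 1). Slc2a1, the glucose transporter GLUT1, was at 9506 ± 4453 in sham and 3637 ± 1558 in OHT, and Slc16a1, the monocarboxylate carrier MCT1, at 4069 ± 1649 and 1608 ± 696 (limma adjusted p = 0.337 and 0.343), both without overlap. Retinal neurons and glia express these 2 carriers too. Slc7a1 and Abcg2 had log2 differences of 0.22 and 0.03. Of 14 genes of Norrin and Notch signalling 12 were lower by estimate (median -1.12, with -0.49 after quantile normalization and -0.67 without OHT replicate 1), led by Tspan12, a co-receptor for Norrin, at 543 ± 248 and 114 ± 110 (limma adjusted p = 0.343), and Notch4 at 140 ± 30.6 and 57.4 ± 70.3 (limma adjusted p = 0.486). Rbpj, the DNA-binding partner of Notch, had 2230, 2316 and 2405 against 3059, 2790 and 3177 (0.38, SE 0.33, limma adjusted p = 0.634), and in ppm the groups overlapped, with OHT replicate 1 (46.5 ppm) below every sham library. Jag1, a Notch ligand, was at 529 ± 226 and 937 ± 942 (limma adjusted p = 0.795).

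Cultures were compared with the sorted cells by level alone, since the tables were normalised separately. The members split there. Tek was at 17.0, 18.4 and 11.8 ppm, above the highest sorted library (11.2 ppm), whereas Tie1 was at 0 to 0.0391 ppm (0, 1 and 3 reads) and Cdh5 at 0.0132 to 0.166 ppm (11, 1 and 10 reads). These reads take the smallest value of a library as 1 read, which could not be checked independently for culture replicate 3. Pecam1 had 0.317 to 0.529 ppm and Slco1a4 0.0754 to 0.198 ppm, both below every sorted library. Flt1 (13.1, 14.7 and 12.4 ppm) and Kdr (9.06, 10.4 and 10.2 ppm) were also below every sorted library, but they were well covered, with 601 to 1112 reads. Esam at 1.73 to 2.89 ppm and Egfl7 at 1.92 to 2.46 ppm lay within or just below the OHT range. In log2 of mean ppm, cultures differed from sham by 1.13 for Tek, -2.72 for Flt1, -2.73 for Egfl7, -2.83 for Esam, -4.07 for Kdr, -4.63 for Pecam1, -4.76 for Cdh5 and -7.16 for Slco1a4. Leaving out 1 library moved the Tek value between 0.66 (without sham replicate 3) and 1.59 (without sham replicate 2) and the Cdh5 value between -5.32 (without sham replicate 3) and -3.77 (without sham replicate 2).

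Per length, Tek led in the cultures at 3.33 ± 0.733 ppm per kb, followed without overlap by Kdr at 1.10 ± 0.0814, whose libraries overlapped those of Flt1 (0.990 ± 0.0887, SD, n = 3). TIE2 transcripts were thus found there with almost none for TIE1, VE-cadherin or CD31. Of the other endothelial genes, 25 were listed in both tables, and 18 had a lower mean in the cultures than in sham and 7 a higher one. Cd34, for instance, was at 2.52 to 3.36 ppm in the cultures against 43.8 to 181 ppm in sorted libraries, and Fli1 at 6.47 to 9.53 ppm against 77.1 to 120 ppm. Of 14 VEGF and angiopoietin genes, 11 had a higher mean in the cultures and 3 a lower one. Of the listed vessel genes, 3 singled out after the values were seen were high in the cultures. Emcn, the sialomucin endomucin, was at 60.5 to 83.9 ppm against 0.336 to 5.16 ppm in sorted libraries, and Flt4, which encodes VEGFR3, at 23.8 to 24.7 ppm against 0.315 to 2.99 ppm. Esm1, a proteoglycan of sprouting vessels, was at 46.6 to 52.3 ppm and was not listed in the sorted table. Vwf (0.119 to 0.352 ppm) and Sox17 (0 reads) were near or at 0. Per 1000 ppm of the Müller glia sum Kdr was at 27.4 to 41.9 in the cultures, overlapping its sorted range of 30.7 to 48.2, while Flt1 was at 33.2 to 60.4, above its sorted range. Dkk3 made up 72.2% to 75.0% of that sum in the cultures and 17.0% to 29.4% in the sorted libraries, so the denominator differs between them.

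The genes of other kinds whose profile was most like the mean of the 10 over the 6 sorted libraries were Rasa2 (Pearson r = 0.994), Naxd (0.974), Rab33b (0.971), Map3k5 (0.967) and Zfp24 (0.956). They were the closest of all genes with a mean of at least 100 normalised counts, so these values are high by choice and carry no test. None of the 5 is on a list used here. For Flt1 alone, the 3 closest were Rhoc (0.99), Bcat1 (0.987) and Rlbp1 (0.985), the last being the Müller glia retinaldehyde-binding protein. For Kdr they were Adgrv1 (0.992), Trpm3 (0.991) and Tollip (0.991), none of them on the Müller glia list. These ranks were looked up after the values were seen and carry no test.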

How the data were processed

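RNA was turned into cDNA and amplified (SMARTer v4) and sequenced as paired reads of 150 bp, per the labels' protocols. The submitters' processing notes name bcl2fastq 2.20, Trim Galore 0.6.6, FastQC 0.11.9, STAR 2.7.1a and build mm39. Which program counted and normalized the reads, and on which annotation, is not given in the sources used here. The deposited signal is 1 normalised value per gene and library, in separate tables for sorted cells and cultures. Among sorted libraries, 100% of values were whole multiples of 1 step per library (tolerance 0.05 reads), which gave recovered reads. Counting intervals cover counting error only, since amplified reads are not independent molecules.

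OHT and sham were compared with limma 3.58.1 (eBayes with trend, R 4.3.3) on log2(value + 1) in 14403 genes with a mean of at least 10, with no covariate and Benjamini-Hochberg adjustment at 0.05. All 10 members passed that filter. Alternatives changed the pseudocount (0.5, 10), the filter (none, 100), the scaling (TMM, quantile), trend, array weights, a replicate block and each library, or used edgeR 4.0.16 and DESeq2 1.42.0 on recovered reads. For ppm levels they used a total without the 20 highest genes and a median-of-ratios scaling. The labels gave the groups and replicate numbers. The members and lists were chosen with earlier results of these data known. Named genes were the members, up to 2 genes of smallest p per direction in each list, and the 5 genes closest in profile; 1 gene so named is not reported here. Lengths came from GENCODE M21, whose build differs from mm39. Python 3.11.15 with pandas 2.3.3 and matplotlib 3.10.9 made levels and figures.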

Additional observations from a re-analysis of the deposited data

How the results depend on the processing

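No member passed the adjusted threshold in the chosen fit or in any of its 17 alternatives, and 9 of the 10 kept a negative estimate in each alternative that tested them. A mean of at least 100 left Cdh5 and Tie1 untested. Tie1 changed sign, to 0.10 with a pseudocount of 0.5, 0.61 after quantile normalization, and -2.14 to 1.25 when 1 library was left out. The count of called genes over the whole table was 0 with limma, 2 with the replicate block and 275 with DESeq2, which gave 1831 genes no adjusted p. It ran from 0 to 17 when 1 library was left out, with 12 without sham replicate 1 and 17 without sham replicate 3. The cause was not tested. Replicate numbers did not pair the libraries: same-numbered sham and OHT libraries had correlations of their deviations from the group means of 0.08, -0.03 and -0.04, across genes, and not every library was closest to its own number. The replicate block called 0 members and 0 pathway genes. The median of the 10 genes was -0.82 without sham replicate 2 and -1.89 without sham replicate 3. The log2 ratio of their summed ppm stayed between -1.46 and -0.82. The ranges of the Flt1 and Kdr ratios were 1.38-fold and 1.56-fold with a geometric mean of the Müller genes, an alternative added after seeing the data. Values under about 10 reads, as for Cdh5, Tie1 and Slco1a4 in single libraries, cannot order libraries.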

Other observations

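Other vessel-related cell types were measured through lists of their own. Platelet and megakaryocyte genes, which matter here because platelets share Esam and Pecam1 with endothelium, summed to 89.7 to 144 ppm in sham and 72.7 to 267 ppm in OHT. Pf4, a chemokine of platelets and some macrophages, carried most of this sum at 50.8 to 252 ppm in the 6 sorted libraries. Gp6 and Gp1bb, which are more restricted to platelets, had 0 reads in most of them. Gp9 (0.615 to 13.8 ppm) and Gp1ba (0.21 to 2.32 ppm) were above 0 in all 6. None of the 6 platelet genes tested passed the limma threshold, and 5 were lower by estimate. Hemoglobin and other erythrocyte genes ran from 1.11 to 602 ppm in sham and from 9.09 to 231 ppm in OHT, highest in sham replicate 3.

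Of the genes known from lymphatic endothelium, 4 were tested, 0 passed the limma threshold and 4 were lower by estimate in OHT (median log2 difference -0.62). Prox1, a transcription factor that Müller glia also express, averaged 956 ± 395 normalised counts over the sham libraries and 464 ± 263 over the OHT libraries (SD, n = 3). Lyve1, a hyaluronan receptor that macrophages also carry, was at 27.5 to 39.4 ppm in sham, 11.7 to 46.5 ppm in OHT and at most 0.0793 ppm in the cultures. Pdpn, the mucin podoplanin, was at 497 to 592 ppm in the cultures against 34.4 to 169 ppm in sorted libraries.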
